A study of Mus musculus with 6 samples.

Results

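The TGF-beta and activin ligand and receptor genes examined here were the 3 TGF-beta ligand genes Tgfb1, Tgfb2 and Tgfb3, the 2 activin subunit genes Inhba and Inhbb, and the 3 receptor genes Tgfbr1, Tgfbr2 and Tgfbr3. They were taken by name as a family, with earlier results of these data known, and are 8 of 21755 protein-coding genes annotated on chromosomes 1 to 19 and X. Their peaks of H3K4me1, histone H3 carrying a single methyl group on lysine 4, were taken from 3 lists made from mouse whisker pads. A peak was assigned to a gene when it overlapped the gene body or the 5 kb on either side. A peak up to 100 kb from the body was also assigned when the nearest protein-coding start site to its midpoint was that of the gene, and such a peak is called distal. Under this rule 7 of the 8 genes had peaks in every list, and Inhbb had none.

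TGF-beta ligands are secreted in a latent form and signal, once released, through a complex of the type II receptor TGFBR2 and the type I receptor TGFBR1, which phosphorylates SMAD proteins. TGFBR3, or betaglycan, is a co-receptor that presents TGF-beta ligands, above all TGF-beta 2, and that also binds inhibin. Activins are dimers of the inhibin beta subunits encoded by Inhba and Inhbb, act through activin receptors on the same SMAD proteins, and take part in the growth of hair follicles, whiskers and teeth. H3K4me1 lies on active and poised enhancers, and it is usually low at the centre of strongly active promoters.

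The method was CUT&Tag, where a transposase tethered to an antibody cuts out DNA around the marked histone for sequencing. Of the 6 samples of the series, 3 were stained for H3K4me1 and 3 with IgG as the control. The cells were freshly isolated from whole whisker pads of wild-type B6/J2 mouse embryos at embryonic day 12, and all 6 samples share tissue and age by their titles, strain by their labels and genotype by the study's methods. IgG was not analysed here, and no control signal stands beside the values. Nothing in the labels says that the 3 pads came from separate embryos, and the SD over replicates may therefore be technical.

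The source name of replicates 2 and 3 is adult kidney, against the whisker pad of their titles. Of 16 facial mesenchyme marker genes, 16, 16 and 14 had a peak on the body or its 5 kb flanks in replicates 1, 2 and 3, and of 15 adult kidney marker genes 5, 5 and 2 did. Surface ectoderm markers were marked for 9, 9 and 4 of 12 genes, endothelial markers for 2, 1 and 1 of 6, muscle markers for 3 of 4 in each, nerve and glia markers for 1, 1 and 0 of 6, and blood markers for 0 of 6 in each. Of all protein-coding genes, 24.9, 22.6 and 19.6% had such a peak in replicates 1, 2 and 3. Because whole pads were used, fewer cells of a type and less of the mark in each cell cannot be told apart. The lists held 16788, 12969 and 13998 peaks, the top 1% of signal blocks of each library, so their lengths are no measure of depth, which was not measured here. Total signal, the fragment pileup summed over the bases of a peak, was not scaled to depth and was compared as a percentile within its own list.

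At least 1 peak on the gene body or its 5 kb flanks was found for 7 of the 8 genes in replicate 1, in replicate 2 and in replicate 3. The corresponding shares of all protein-coding genes were 24.9, 22.6 and 19.6%. The same 7 genes were marked in all 3 replicates, as were 15.5% of all protein-coding genes. Long genes are overlapped more often. Of genes under 30 kb, 8.93% were marked in all replicates, and of the 4 members of that length Tgfb1, Tgfb3 and Inhba were. Of genes of 50 to 200 kb, 29.5% were marked in all replicates, and so were all 4 members of that length, Tgfb2, Tgfbr1, Tgfbr2 and Tgfbr3. Without the flanks, 5 members were marked in all replicates, since the peaks of Tgfbr1 lay outside the gene and the peak of Tgfb1 in replicate 3 began past its 3′ end. The share over all protein-coding genes was not taken without flanks. Replicate 1, the library whose labels all name the whisker pad, had 7 marked members when taken alone.

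Replicate 1 had 45 peaks assigned to the members, replicate 2 had 37 and replicate 3 had 36, for a mean of 39.3 ± 4.93 (SD, n = 3). Their median percentile of total signal was 58.4, 65.4 and 62.2, where a whole list has a median of 50 by construction. At percentile 90 or above stood 9, 5 and 8 of these peaks. Overlapping peaks were joined across replicates into 43 regions. Shared by all 3 replicates were 28 (65.1%), while 5 were found in 2 replicates and 10 in 1. Of all 19251 merged regions, 46.3% were in all replicates. Sharing needed an overlap of 1 bp, and 21 member regions were shared when peaks had to overlap by at least 50% of both. Tgfbr3 alone held 20 of the 43 regions, so values over the members are largely those of Tgfbr3. Without it, the other members had 23, 20 and 18 peaks, with a median percentile of 52.4, 40.8 and 53.4. The median was thus lower in each replicate without Tgfbr3, and it stayed above 50 in replicates 1 and 3 only. Of the peaks of the other members, 2 in each replicate stood at percentile 90 or above, and of their 23 regions 15 (65.2%) were in all replicates.

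By its median place over the replicates, the highest pileup of the 28 shared regions lay in an intron of the member in 19, upstream of it in 3 and downstream in 6. Its place differed between replicates by a median of 328 bp in these regions, against 530.5 bp over the 8917 regions of the whole genome that were in all replicates. The shared member regions had a median length of 5.658 kb, against 5.003 kb over those 8917, and a median GC content of 46.7%, against 47.3%.

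Ranked by its strongest peak, Tgfbr3 came first, at percentile 98.3, 96.9 and 99.7 in replicates 1, 2 and 3 (mean 98.3 ± 1.37, SD, n = 3). Tgfb3 followed at 94.2, 90.9 and 95.9 (93.7 ± 2.55), in each replicate by a distal peak inside the body of Ttll5. The only region on the body of Tgfb3 had a mean of 61.5. Tgfbr2 came next at 89.9, 87.4 and 88.9 (88.8 ± 1.26). The ranges of Tgfbr3 and Tgfb3 did not overlap, nor did those of Tgfb3 and Tgfbr2. Tgfb1 reached 87.3, 91.1 and 66.5 (81.6 ± 13.2), by peaks past its 3′ end, and Tgfbr1 52.4, 67.9 and 83.0 (67.8 ± 15.3). Tgfb2 reached 54.2, 37.1 and 67.3 (52.9 ± 15.1), and Inhba 14.2, 35.6 and 64.3 (38.0 ± 25.1). For Tgfb2 the strongest peak belonged to a different region in each replicate, so its SD is not the spread of 1 region. The only Tgfb2 region in all replicates had a mean of 34.1. For Inhba the strongest peak was that over the start site in replicates 1 and 3 and the second peak in replicate 2. From Tgfbr2 downward each gene overlapped the next in its range over replicates, so the ranges did not separate those neighbours. Within replicates 1, 2 and 3, Tgfb2 stood above Inhba by 40.0, 1.51 and 3.02 points, and the other overlapping neighbours changed order between replicates. With total signal divided by peak length, Tgfb1 stood above Tgfbr2, at a mean of 86.3 against 84.8, and the order was otherwise kept. The highest of several percentiles tends to rise with the number of peaks. That number was 22, 17 and 18 for Tgfbr3 but 2 in each replicate for Tgfbr1 and Inhba, and the order was not adjusted for it.

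**Figure D1:**
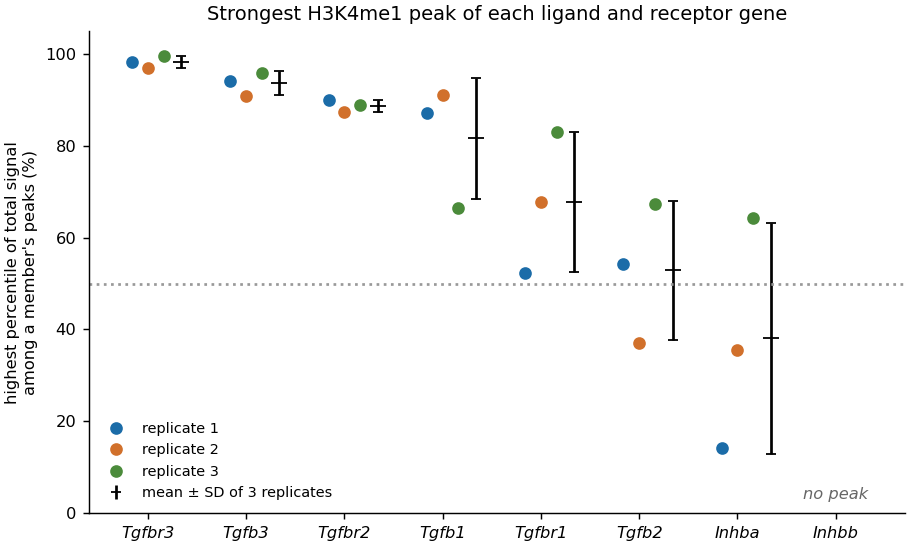
Highest percentile of total signal among the peaks of each gene, for replicates 1 (blue), 2 (orange) and 3 (green), with mean ± SD over the 3 replicates in black and the list median as a dotted line. The 3 points of Tgfbr3 lie between 96.9 and 99.7, whereas those of Inhba spread from 14.2 to 64.3. The genes differ in their number of peaks, for which the values are not adjusted. The points of Tgfb3 are distal peaks inside Ttll5, and those of Tgfb1 lie past its 3′ end. Each point of Tgfb2 is a peak of a different region.

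Among the ligand genes, Tgfb3 had the highest mean percentile, although in replicate 2 Tgfb1 stood at 91.1 and Tgfb3 at 90.9. The product of Tgfb3 has an essential part in the fusion of the palate. Tgfb3 lies on the minus strand at chr12:86056745-86079041 and had 1 peak on its body and 3 distal peaks in each replicate. All 4 merged regions were shared by the 3 replicates. The 3 distal regions had their highest pileup 41.7, 56.2 and 65.1 kb downstream of the start site, which is past the 3′ end of Tgfb3 and inside the body of Ttll5, a gene for a polyglutamylase. The farthest was the strongest, at percentile 94.2, 90.9 and 95.9. The one at 56.2 kb stood at 90.9, 88.7 and 90.4, and the highest pileup fell within 23 bp in the 3 replicates. The nearest stood at 67.6, 44.4 and 37.5. Thus the 2 strongest regions assigned to Tgfb3 lie within another gene and were given to Tgfb3 by distance alone.

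The fourth region of Tgfb3 ran from just upstream of the start site to 4.09 kb into the gene, with its highest pileup in intron 1. It stood at percentile 79.5, 69.6 and 35.5, falling lowest in replicate 3, where the peak ended short of the start site. In replicates 1 and 2 the peak covered the start site, and the highest pileup, of 57, 49 and 36 fragments, lay at the same base in all 3 replicates. Its 300 bases and those around the highest pileup of the farthest distal region are given on the plus strand of GRCm38, at chr12:86076145-86076444 and chr12:86013802-86014101. They are shown because they hold the start-side signal and the strongest signal given to Tgfb3, and neither held any of the 8 motifs searched, so no base is in capitals.
Tgfb3 intron 1: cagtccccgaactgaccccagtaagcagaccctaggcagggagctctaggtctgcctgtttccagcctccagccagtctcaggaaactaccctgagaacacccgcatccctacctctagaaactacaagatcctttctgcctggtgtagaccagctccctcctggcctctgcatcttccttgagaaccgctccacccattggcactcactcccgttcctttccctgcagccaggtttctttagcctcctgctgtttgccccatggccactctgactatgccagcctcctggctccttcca
Tgfb3 distal region: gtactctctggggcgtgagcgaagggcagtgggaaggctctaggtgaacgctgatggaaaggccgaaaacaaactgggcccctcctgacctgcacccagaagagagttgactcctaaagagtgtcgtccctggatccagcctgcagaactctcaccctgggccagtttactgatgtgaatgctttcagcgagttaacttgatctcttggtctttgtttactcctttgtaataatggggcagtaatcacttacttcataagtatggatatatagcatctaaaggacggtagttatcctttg

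Tgfb1, the ligand gene at chr7:25687002-25705077 on the plus strand, had 2, 2 and 1 peaks. Its only shared region ran from 25704785 to 25714067, from the last exon of Tgfb1 into Ccdc97, a convergent gene on the minus strand. The strongest peak of the region lay past the 3′ end of Tgfb1 in every replicate and stood at percentile 87.3 and 91.1 in replicates 1 and 2 and at 66.5 in replicate 3. These peaks counted for Tgfb1 by overlap with its 3′ flank alone. In replicate 3 the peak lay 4.47 kb from the gene body and had the start site of Ccdc97 as its nearest. Only 0.505 kb of the Tgfb1 body and its 5 kb flanks was under a peak in all replicates, out of 8.22 kb under a peak in any. With percentiles taken among peaks of like GC content, the mean was 77.4 in place of 81.6. At the start of Tgfb1 a single peak was called, in replicate 2, from 134 bp to 3.06 kb into the gene, at percentile 32.6. The stretch from 3.06 to 17.8 kb into the gene had no peak in any replicate.

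Tgfb2, whose loss in mice causes craniofacial, heart and other defects, lies at chr1:186622792-186705989 on the minus strand. It had 3, 2 and 2 body peaks and 1, 0 and 1 distal peaks, which formed 5 regions. Only 1 of the 5 was shared by all replicates, an intron 1 region 8.54 to 12.9 kb into the gene, at percentile 53.2, 37.1 and 11.8. The strongest single peak was in replicate 3 alone, at percentile 67.3, and spanned 1.07 to 5.74 kb into the gene. An intron 2 region at 29.0 kb was called in replicates 1 and 2, at percentile 54.2 and 20.1. Weak regions lay 74.0 kb into the gene, in replicate 1 at percentile 4.77, and past its 3′ end, in replicates 1 and 3 at 5.46 and 26.6. The gene had no peak in any replicate between 30.9 and 72.9 kb from its start. The replicates thus shared little at Tgfb2, with 1.62 kb under a peak in all of them out of 14.8 kb in any.

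Inhba, which encodes the beta A subunit of activin A, was the only member with a peak over a start site in all 3 replicates. It lies at chr13:16011851-16031621 on the plus strand and had 2 peaks in each replicate. They formed a single region of 11.1 kb, from 16010046 to 16021152, which runs from upstream of the gene to 9.30 kb into it and also lies in the annotated pseudogene B230303A05Rik. The peak over the start site stood at percentile 14.2 in replicate 1, 19.8 in replicate 2 and 64.3 in replicate 3. The second peak, which lay wholly inside the gene, stood at 3.23, 35.6 and 20.99. Inhba was thus marked in each replicate by peaks below the median of the list, apart from the start site peak of replicate 3, which reached 4746 bp into the gene. The highest pileup of the start site peak lay in a UTR exon in replicates 1 and 2, and over the whole region the strongest peaks of the replicates had their highest pileups up to 3866 bp apart. The 250 bases before the RefSeq start site, at chr13:16011601-16011850 on the plus strand of GRCm38, are shown because they lay under a peak in every replicate. They had a GC content of 43.2% and 3 CpG dinucleotides, against medians of 52.4% and 6 over 32851 RefSeq promoters of this length, and held none of the 8 motifs.
Inhba promoter: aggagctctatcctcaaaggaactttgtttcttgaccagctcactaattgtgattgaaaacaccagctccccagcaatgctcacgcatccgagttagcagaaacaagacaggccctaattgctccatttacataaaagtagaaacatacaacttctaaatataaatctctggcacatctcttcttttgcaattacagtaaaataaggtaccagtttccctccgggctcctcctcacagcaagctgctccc

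Inhbb, which encodes the beta B subunit, lies at chr1:119415465-119422248 on the minus strand and is 6.78 kb long. It had no peak in any of the 3 lists, on its body, on its flanks or among distal peaks. The nearest peak lay 63.1, 63.2 and 63.0 kb from the gene in replicates 1, 2 and 3, inside Ralb, and had the start site of Ralb as its nearest. That peak was strong, at percentile 92.8, 91.5 and 89.0. The Inhbb promoter had a GC content of 68.0% and 21 CpG dinucleotides. Absence from a list of the top 1% of blocks does not show that the mark was absent from the gene.

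**Figure D2:**
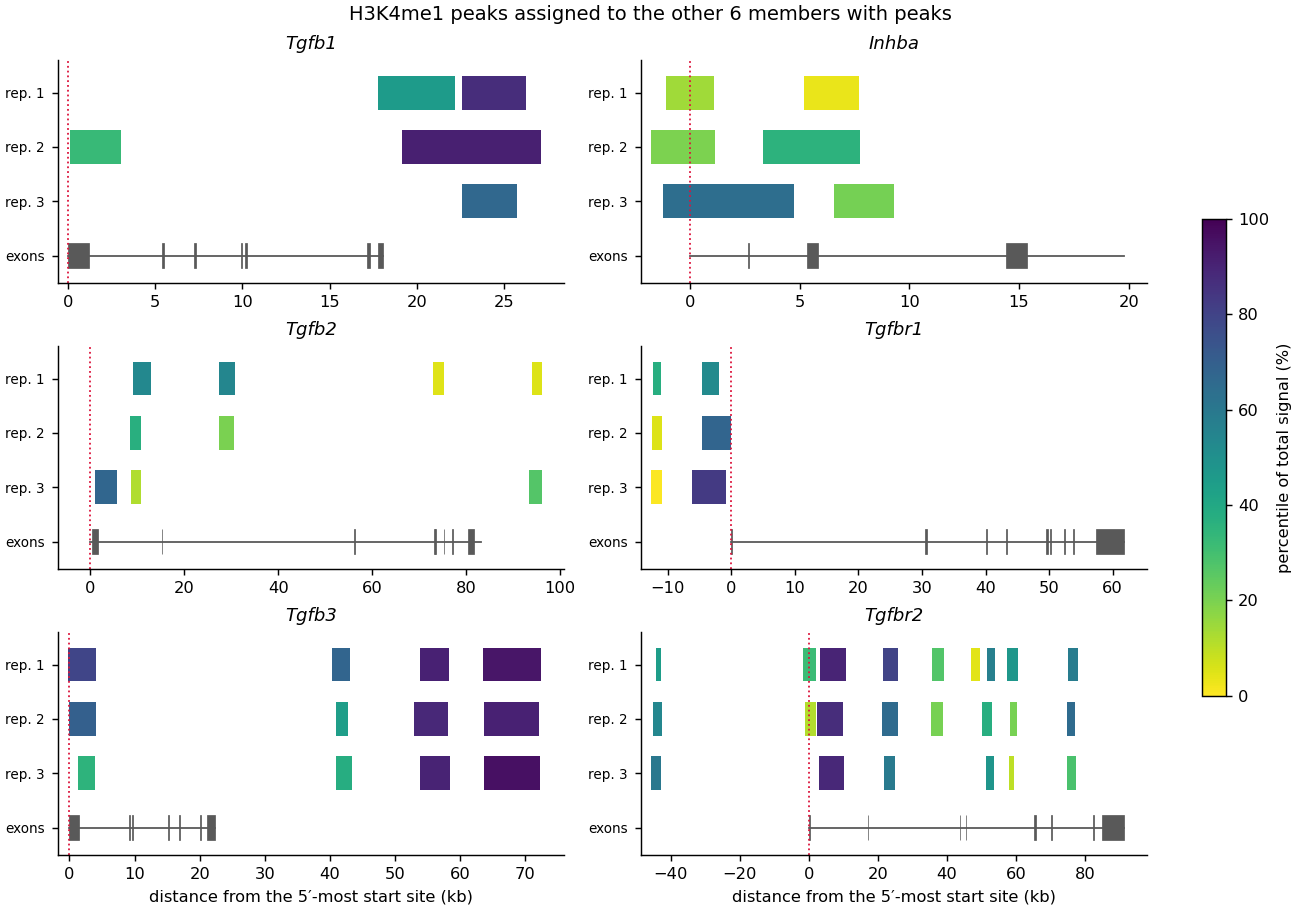
Peaks assigned to Tgfb1, Tgfb2, Tgfb3, Inhba, Tgfbr1 and Tgfbr2 by distance from the 5′-most start site in kb, in the direction of transcription, with 1 row for each replicate, exons in grey, the start site as a dotted line and the percentile of total signal as colour. The strong distal peaks of Tgfb3 sit 56.2 and 65.1 kb from its start in all replicates, Tgfbr1 has peaks only upstream, and Inhba has a peak over its start in each replicate.

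Of the receptor genes, Tgfbr1, for the type I receptor kinase, lies at chr4:47353222-47414931 on the plus strand and had 1 flank peak and 1 distal peak in each replicate. Both were upstream of the gene. The nearer region had its highest pileup 2.84 kb before the start site and stood at percentile 52.4, 67.9 and 83.0. In replicate 2 it ended 10 bp before the start site. The distal region, 11.5 kb upstream, stood at 37.2, 5.14 and 0.429, near the foot of the list in replicates 2 and 3. The gene itself, all 61.7 kb of it, had no peak in any replicate. The promoter at the 5′-most start of Tgfbr1 had a GC content of 74.8% with 29 CpG dinucleotides and was overlapped by a peak in replicate 2. A second, internal Tgfbr1 promoter of the RefSeq table had 52.8% and 3 and was under no peak.

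The window around the highest pileup of the nearer Tgfbr1 region, at chr4:47350232-47350531 on the plus strand, held 1 match to CAGACA, the short SMAD-binding sequence, and 2 matches to GGAATG, a TEAD-type sequence. Capitals mark these matches.
Tgfbr1 upstream region: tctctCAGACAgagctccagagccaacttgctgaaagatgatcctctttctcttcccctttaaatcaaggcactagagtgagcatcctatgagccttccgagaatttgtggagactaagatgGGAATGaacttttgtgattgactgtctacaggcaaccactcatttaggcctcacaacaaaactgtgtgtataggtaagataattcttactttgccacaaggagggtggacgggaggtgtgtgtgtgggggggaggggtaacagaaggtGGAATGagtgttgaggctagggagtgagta

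Tgfbr2, for the type II receptor that binds the ligand, lies at chr9:116084293-116175360 on the minus strand. It had 8, 7 and 5 body peaks and 1 distal peak in each replicate. Peaks covered 29.2, 25.7 and 16.7% of the body and flanks, a mean of 23.9 ± 6.43% (SD, n = 3), and the coverage was lowest in replicate 3. Of its 9 regions 6 were shared by all replicates. The strongest lay in intron 1, from 2.36 to 10.6 kb into the gene, at percentile 89.9, 87.4 and 88.9, although its highest pileup moved by 3766 bp between replicates. Further shared regions lay in intron 2, at 23.9 kb and percentile 79.8, 65.4 and 59.2, and in intron 6, at 76.2 kb and percentile 58.4, 65.6 and 28.7. Intron 4 held 2 shared regions, at 52.3 kb, with percentile 56.8, 37.2 and 47.7, and at 58.7 kb. Regions not in every replicate were weak, at percentile 27.1 and 20.7 in replicates 1 and 2 for one in intron 2, and at 4.42 in replicate 1 for one in intron 4. The distal region lay 43.7 kb upstream, over the lincRNA gene Gm31410, at percentile 44.8, 53.9 and 60.1.

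The start site of Tgfbr2 was covered by a peak in replicates 1 and 2, at percentile 31.8 and 11.4, and by none in replicate 3. That region had a GC content of 53.7%. The 250 bases before the RefSeq start site, at chr9:116175364-116175613, are shown on the minus strand, together with the intron 4 window at chr9:116116539-116116838 on the plus strand, where the highest pileups of the 3 replicates lay within 45 bp. The intron 4 region of this window, at 58.7 kb, was weak, at percentile 47.2, 20.6 and 9.99. Its window held 1 match to CTTTGAT, the LEF1 and TCF sequence, and 1 to CAGATG, an E-box, both in capitals, and the promoter held none of the 8 motifs.
Tgfbr2 promoter: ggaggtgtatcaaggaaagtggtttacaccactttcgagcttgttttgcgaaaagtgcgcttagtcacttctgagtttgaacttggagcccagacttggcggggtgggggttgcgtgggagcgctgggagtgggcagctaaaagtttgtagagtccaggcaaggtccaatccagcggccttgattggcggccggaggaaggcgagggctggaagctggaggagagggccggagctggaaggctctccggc
Tgfbr2 intron 4: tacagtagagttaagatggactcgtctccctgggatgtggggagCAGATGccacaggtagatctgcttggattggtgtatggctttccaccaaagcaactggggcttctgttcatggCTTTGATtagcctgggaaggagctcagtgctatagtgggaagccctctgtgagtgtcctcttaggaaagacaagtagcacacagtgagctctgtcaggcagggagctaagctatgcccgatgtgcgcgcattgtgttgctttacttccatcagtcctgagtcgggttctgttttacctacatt

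Tgfbr3, the co-receptor gene, carried the most H3K4me1 of the 8. It is 183 kb long, at chr5:107106570-107289629 on the minus strand, and had 18, 16 and 16 peaks on its body and flanks and 4, 1 and 2 distal peaks. Peaks covered 45.7, 39.7 and 47.2% of the body and flanks, a mean of 44.2 ± 3.95% (SD, n = 3), or 88.3, 76.7 and 91.0 kb. Its peaks held 0.196, 0.173 and 0.218% of all signal in the lists. By the mean number of body and flank peaks Tgfbr3 had rank 30 of the 21755 genes, and by percent covered rank 268, since short genes can be covered wholly. Among 644 genes within 20% of its length it had rank 5 by percent covered, where the median gene had 1.36%.

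Likeness in coverage was measured by the largest difference in any of the 3 replicates, among genes within 20% of the length of Tgfbr3. By that measure Mpped2, Mbnl2 and Ext2 were most like it, while by mean coverage Ror2, at 43.9%, and Zmiz1, at 43.1%, were nearer than Mbnl2, at 38.5%. Mpped2 was 43.2, 38.3 and 47.2% covered in replicates 1, 2 and 3, at most 2.53 percentage points from Tgfbr3 in any replicate. For Mbnl2 the largest difference was 6.34 points and for Ext2, which encodes a heparan sulfate polymerase, 7.60 points. The comparison took in 643 genes.

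**Figure D3:**
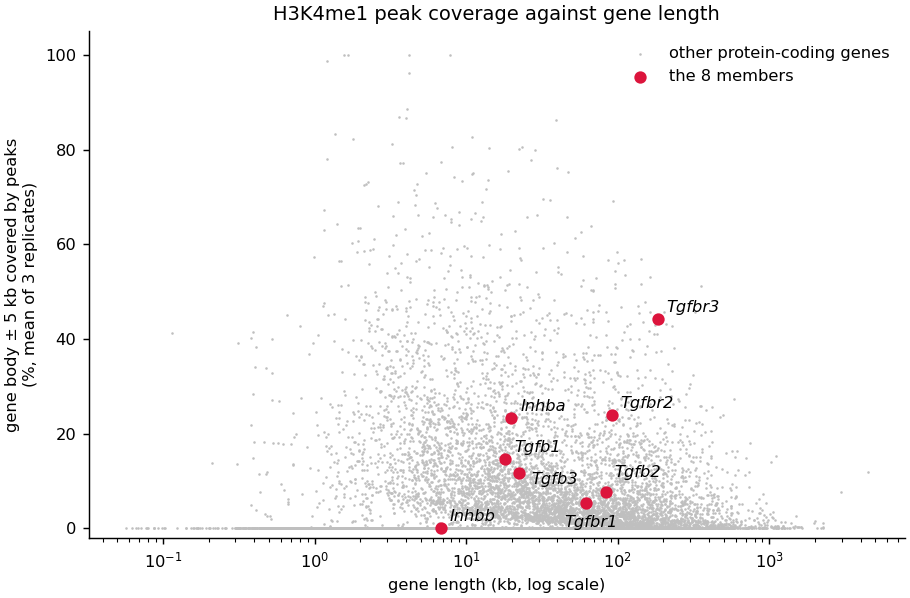
Percent of the gene body with 5 kb on either side covered by peaks, as the mean of 3 replicates, against gene length in kb on a log scale, for all protein-coding genes (grey) and the 8 members (red). Tgfbr3 lies at 44.2%, far above most genes of its length, Tgfbr2 at 23.9% and Inhbb at 0.

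The signal of Tgfbr3 was spread along the gene and its 3′ side. Of its 20 regions, 13 were shared by the 3 replicates. Body and flanks were under a peak in all replicates over 69.2 kb and in any replicate over 100.6 kb, so 68.8% was shared. Over all protein-coding genes the shared part was 39.1%. Over the 8 members it was 53.4%, but over the members other than Tgfbr3 it was 33.0%, or 25.2 of 76.4 kb. The longest part of the gene without a peak in any replicate was 19.8 kb, from 143 to 162 kb into the gene. No peak lay within 1 kb of a start site of Tgfbr3 in any replicate, and the first shared region began 4.21 kb into the gene, in intron 1.

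The strongest region of Tgfbr3 lay in intron 2, from 49.8 to 71.5 kb into the gene. In replicate 3 it was a single peak of 21.6 kb at percentile 99.7, and in replicates 1 and 2 it was called as 2 and 3 peaks, of which the strongest stood at 98.3 and 96.9. Next came an intron 4 region, from 117 to 134 kb, at percentile 95.6, 91.0 and 97.3, and an intron 16 region 179 kb into the gene, at 93.7, 91.2 and 91.6. An intron 14 region at 167 kb stood at 88.8, 83.4 and 93.2, and an intron 5 region at 138 kb at 90.2, 86.8 and 86.2. All 5 of these regions stood above percentile 80 in every replicate. In intron 3, the regions at 93.1 kb and 76.3 kb stood at 84.6, 77.1 and 87.0 and at 83.2, 41.6 and 46.4, and in intron 2 the region at 36.8 kb stood at 82.1, 75.4 and 81.3. The intron 1 regions were of like or lower rank, at 64.7, 55.9 and 67.8 for the one nearest the start and 76.5, 83.4 and 86.1 for the other. Past the 3′ end, a flank region stood at 93.1, 83.2 and 91.6 and a distal region, 202 kb from the start, at 51.9, 59.3 and 46.7. Other regions were weaker and not in every replicate, namely intron 3 regions at percentile 51.1 and 47.3 in replicates 1 and 3 and at 21.6 in replicate 1, an intron 2 region at 11.6 in replicate 3 and a far downstream region at 8.03 in replicate 1. The 3 regions upstream of the gene were each called in a single replicate, at percentile 21.9, 2.85 and 42.0.

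In intron 3, 89.3 kb into the gene, the highest pileup was 248, 245 and 237 fragments in replicates 1, 2 and 3 and lay at the same base in all 3 libraries. By maximum signal these peaks stood at percentile 99.4, 99.5 and 99.8 and by total signal at 91.4, 87.5 and 91.0. The pileup is not scaled to depth, and whether the height reflects reads that align to several places was not tested. The window at chr5:107200179-107200478 is shown on the plus strand, with 1 match to TGANTCA, the AP-1 sequence, in capitals. It stands beside the window of the strongest region in intron 2, at chr5:107223354-107223653, which held the highest pileup of 2 of the 3 replicates and none of the 8 motifs.
Tgfbr3 intron 3: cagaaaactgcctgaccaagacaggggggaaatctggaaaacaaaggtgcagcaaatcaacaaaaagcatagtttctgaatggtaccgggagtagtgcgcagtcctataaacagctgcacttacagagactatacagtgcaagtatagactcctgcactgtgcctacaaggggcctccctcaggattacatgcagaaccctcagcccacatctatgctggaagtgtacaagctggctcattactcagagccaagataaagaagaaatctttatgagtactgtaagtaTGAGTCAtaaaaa
Tgfbr3 intron 2: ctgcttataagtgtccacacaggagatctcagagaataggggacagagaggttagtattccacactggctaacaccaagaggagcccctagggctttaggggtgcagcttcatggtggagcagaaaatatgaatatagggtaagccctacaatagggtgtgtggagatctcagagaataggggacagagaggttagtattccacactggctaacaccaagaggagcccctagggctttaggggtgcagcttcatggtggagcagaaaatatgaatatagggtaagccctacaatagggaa

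The intron 2 window of Tgfbr3 matched itself at a shift of 141 bases, with 88.1% identity over the 159 bases compared. The best self-match of the other 10 windows examined was 32.0 to 40.3% identity. The window therefore holds most of a pair of tandem copies, and the part of these copies in the height of the pileup was not tested. The 159 bases compared include letters outside the repeated stretch, and within that stretch the printed copies are the same.

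**Figure D4:**
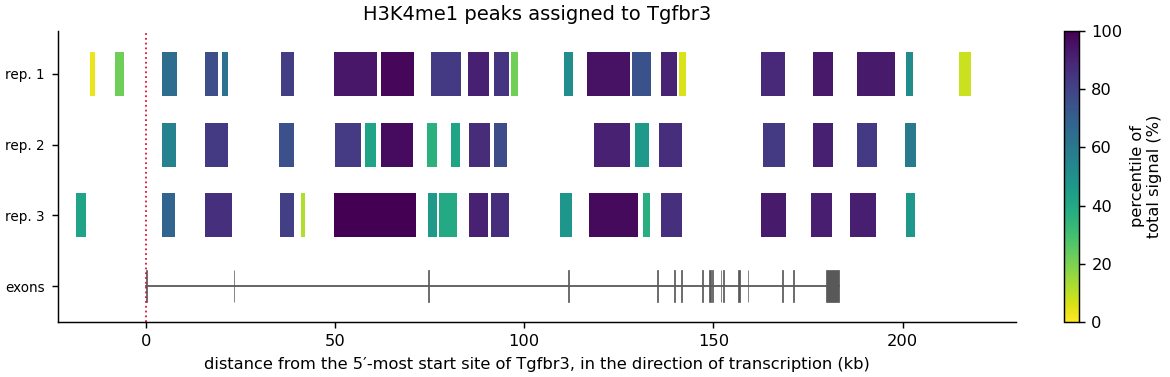
Peaks assigned to Tgfbr3 by distance from its 5′-most start site in kb, in the direction of transcription, with 1 row for each replicate, exons in grey, the start site as a dotted line and the percentile of total signal as colour. Peaks of varied strength recur in all 3 replicates from 4.21 kb into the gene to its 3′ flank. The strongest lie between 49.8 and 71.5 kb, and peaks upstream of the start are weak and single.

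To set the windows against the rest of the genome, 8 short motifs were counted on both strands in 300 bases around the highest pileup. There were 11 such windows, being those of the 7 strongest shared regions, 1 for each member with peaks, and 4 regions added after their values were seen for the close agreement of their highest pileups. CAGACA (SMAD) was in 3 of the 11 windows and in 30.7% of the windows of 8916 shared regions. CAGATG (E-box) was in 3 of 11 and 27.7%, and GGAATG (TEAD) in 2 of 11 and 18.6%. TGANTCA (AP-1), CTTTGAT (LEF1 and TCF) and GAAAGNGA (PRDM1) were each in 1 of 11, and in 8.86, 3.93 and 7.32% of all windows. TAATTA (homeodomain) and GGCGCC (GC-rich SMAD sequence) were in 0 of 11, and in 4.61 and 2.16%. Matches of such short sequences are frequent, and they describe letters and not binding.

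A peak within 1 kb of a start site was found for 3, 5 and 3 of the 8 members in replicates 1, 2 and 3, against 12.5, 12.1 and 8.78% of all protein-coding genes. Inhba alone had one in all 3 replicates. The others were Tgfb3 and Tgfbr2 in replicate 1, Tgfb1, Tgfb3, Tgfbr1 and Tgfbr2 in replicate 2, and Tgfb2 and Tgfbr1 in replicate 3. Over the start site itself, where no share over all protein-coding genes was taken, 3, 3 and 1 members had a peak. They were Tgfb3, Tgfbr2 and Inhba in replicates 1 and 2 and Inhba alone in replicate 3. Of the promoters of the 6 members in the RefSeq table, those of Tgfb1, Inhbb and the 5′-most start of Tgfbr1 had the most CpG dinucleotides, 21, 21 and 29, and none of the 3 genes had a peak over a start site, although the Tgfbr1 promoter was overlapped in replicate 2. Tgfbr2, at 58.4% GC with 12 CpG, Tgfb2, at 53.6% with 8, and Inhba, at 43.2% with 3, were lower, as was the second promoter of Tgfbr1.

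Replicate 3 differed from the others by GC content. Within each replicate, the share of a region was its signal over that of the 8917 regions found in all replicates. For the 28 shared regions, the share of signal in replicate 3 over that in replicate 2 had a median log2 ratio of 0.36 in the 14 regions of lower GC content and of -0.04 in the 14 of higher GC content. For replicate 1 over replicate 2 these medians were 0.13 and 0.04. The region past Tgfb1, with the highest GC content of 54.3%, had a ratio of -1.27, the promoter-side region of Tgfb3, at 53.7%, had -0.81, and the intron 6 region of Tgfbr2, at 50.9%, had -0.79. All 13 shared regions of Tgfbr3 were at 45.1 to 48.9% GC, and 10 of them had a ratio above 0. GC content moved with the replicate in these values, and its part in the differences at Tgfb1, Tgfb3 and Tgfbr2 was not tested.

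**Figure D5:**
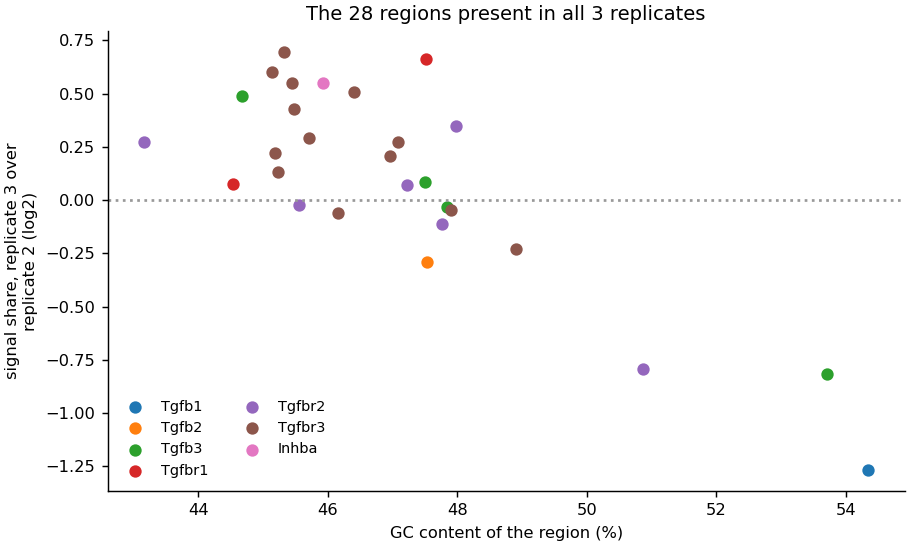
Log2 ratio of the share of signal in replicate 3 to that in replicate 2 against the GC content of the region in percent, for the 28 regions in all 3 replicates, coloured by gene. The 3 regions above 50% GC, of Tgfbr2, Tgfb3 and Tgfb1, have ratios of -0.79, -0.81 and -1.27. Shares are of the summed signal of all regions of the genome found in all 3 replicates.

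Other genes of the TGF-beta and activin pathway were counted by the same overlap of body and 5 kb flanks. Of 51 such genes, 33, 28 and 27 had a peak in replicates 1, 2 and 3, 21 (41.2%) had one in all replicates and 15 in none, beside the 15.5% of all protein-coding genes in all replicates. Long genes are overlapped more often, and this list was not set against genes of like length. Percentiles of single genes are again those of the strongest peak, as the mean of 3 replicates with a missing peak taken as 0.

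Of 8 other ligand genes, including Nodal and the inhibin alpha gene Inha, 4, 1 and 2 had a peak and 1 had it in all replicates, namely Gdf11, at percentile 32.4, 52.0 and 14.1. Mstn (myostatin), with a mean of 12.5, and Lefty2, with 5.998, came next. Of 8 other receptor and co-receptor genes 5, 5 and 4 were marked, and 3 in all replicates. The strongest peaks were those of Acvrl1, a type I receptor of endothelium, at a mean of 89.7 ± 8.36 (SD, n = 3), Bambi, a decoy receptor, at 82.2 ± 15.0, and Acvr1b, the activin type I receptor, at 61.4 ± 31.4.

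Of the 12 genes for latent TGF-beta complexes and their activation, 11, 11 and 9 were marked, with 9 in all replicates. Ltbp2, which belongs to the family of latent TGF-beta binding proteins, stood at 88.0 ± 4.14, Fbn1 (fibrillin 1) at 84.3 ± 6.67 and Thbs1, whose product can activate latent TGF-beta, at 82.4 ± 3.50. Of the 3 extracellular antagonists, Dcn (decorin) was marked in all replicates, at 80.7 ± 12.6, Fst (follistatin) in replicate 1 only, at 25.8, and Fstl3 in none.

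Of 11 intracellular genes, 5, 6 and 5 were marked and 3 in all replicates. These 3 had some of the strongest peaks of the lists. Smad7, the inhibitory SMAD, stood at 99.94, 99.96 and 99.95 in replicates 1, 2 and 3, Smad3, a signal-transducing SMAD, at 99.7, 99.7 and 99.2, and Ski, a corepressor of SMAD proteins, at 98.1, 97.6 and 96.8. Of 9 target genes 6, 4 and 6 were marked and 4 in all replicates, led by Tgfbi at 97.0 ± 1.03, Col1a1 at 93.0 ± 8.24 and Postn at 83.4 ± 9.72. For comparison, 6 of 6 BMP ligand genes, Bmp2 to Bmp7, were marked in each replicate, as were 5, 6 and 6 of the 8 Smad genes.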

How the data were processed

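According to the submitters' processing notes, reads were handled with Bowtie2 2.3, SAMtools 0.1.19, bedtools and SEACR 1.3 on build mm10. The treatment of duplicate reads is not given in the sources used here. The authors called peaks in each replicate without IgG, in stringent mode, and kept the top 1% of signal blocks. In each deposited list the signal columns are the total and the maximum fragment pileup of a peak, which were whole numbers in 100% of peaks. The study names 1 nominal sequencing depth. Read counts are not part of the lists, so actual depth was not measured and no counting interval is given.

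Gene positions came from GENCODE M21 and bases from GRCm38, which is mm10, with 1-based coordinates. Promoters came from the RefSeq table of GRCm38.p6, where 6 of 8 members matched and Tgfb3 and Tgfbr3 did not. Intron numbers refer to the transcript with the longest coding sequence. Groups and replicate numbers came from the sample titles, and all 8 members were described by their regions. Of other genes, lists of the pathway were counted by group, with the 3 genes of the highest mean percentile named, and the 3 genes of like length closest to Tgfbr3 in coverage were named. Sequences were 300 bases around the highest pileup of the strongest shared region of each member, and promoters under a peak. A selection is printed, with none over a UTR and none that held the highest pileup of 1 replicate only. The members and lists were chosen with earlier results of these data known.

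With a single group there was no test, so values are given per replicate with mean ± SD, beside the share over all protein-coding genes. Peaks were merged where they overlapped by at least 1 bp. Alternatives were other flanks, reaches and start site windows, stronger peaks only, joining of close peaks, other percentiles, leaving out each replicate and, added after the data were seen, replicate 1 alone, the members other than Tgfbr3, and leaving out replicates for coverage, start sites, shared regions and the pathway list. Python 3.11.15 and NumPy 2.4.6 were used, and assignment, coverage and merging were tested on simulated peaks.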

Additional observations from a re-analysis of the deposited data

How the results depend on the processing

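Of 136 recomputed values, 117 kept within 1.5 times a count or within 1 SD of a value. That SD was taken over the same 3 replicates, and leaving out 1 of them cannot move a mean by 1 SD. Percentiles and coverage without 1 replicate were therefore counted as kept by construction. A wide SD also let large moves count as kept, as for Inhba (SD 25.1), while smaller moves of Tgfbr2 (SD 1.26) did not. With the stronger 50% of each list, members marked in all replicates went from 7 to 4, assigned peaks from a mean of 39.3 to 23.7 and regions in all replicates from 28 to 17, which follows from fewer peaks. The median percentile of member peaks was 62.0, and 70.9 both by maximum signal and by total signal divided by length. In replicate 1 alone it was 58.4. The mean percent of a member's body and flanks covered went from 16.3 to 13.4 with flanks of 20 kb. With the nearest start site taken among genes of every type, assigned peaks went from a mean of 39.3 to 33. Only distal peaks depend on that choice. For the members other than Tgfbr3, added after the data were seen, assigned peaks averaged 20.3, regions in all replicates were 15 and the median percentile was 48.9. Members with a peak at a start site fell from a mean of 3.67 to 2.33 when the peak had to cover the site itself. Pathway genes marked in all replicates numbered 21, and 33 when only replicate 1 had to be marked. Leaving out 1 replicate at a time gave 36.5 to 41 assigned peaks on average and 29 to 34 regions in all the others, and moved no other count by over 1.5 times. For single genes, the highest percentile of Tgfbr2 was 83.4 by maximum signal and 84.8 by total signal divided by length, against 88.8, and that of Tgfbr1 was 52.4 in replicate 1 alone, against 67.8. That of Inhba was 24.9 without replicate 3 and 14.2 in replicate 1 alone, against 38.0. With a single group, no groups could be paired, and no result comes from a test. Lists of the top 1% of blocks without IgG cannot show weaker marking, and unscaled pileups allow no comparison of levels between replicates.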
